A study of Mus musculus with 13 samples.

Results

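The sections of autosomal DNA that lay near chromocenters in cultured astrocytes (ACs) were compared with those in the thymus, fragment end by fragment end. Each of 374542 autosomal fragment ends, of 399232 in the deposited calls, had been called PAD (pericentromere-associated domain) or non-PAD in each cell type, and the pair of calls put it in 1 of 4 classes: PAD in both, AC PAD and thymus non-PAD, AC non-PAD and thymus PAD, or non-PAD in both. Consecutive ends of the same class were merged within a chromosome, with borders at the middle between neighboring ends, which gave 3351 regions over 2413.95 Mb of mm9 (NCBIM37). Thymus tissue was taken from adult male C57BL/6 mice, as 3 replicates with 6 sets of reads. It was disaggregated through a cell strainer. No sorting of thymus cells is described, so the share of cells other than thymocytes is unknown. The 2 AC replicates were differentiated in culture from neural precursor cells (NPCs), which were themselves derived from IB10 embryonic stem cells (ESCs) of 129/Ola background. Strain, culture and cell type cannot be told apart in this comparison. The deposited calls hold 1 consensus column per cell type, so replicate error and read depth are unknown, no test between ACs and thymus was possible, and all values below are descriptions. The SDs are taken over the 19 autosomes, which are not replicates of a cell type. A call summarizes a population, so proximity in all cells and proximity in a fraction of them cannot be told apart.

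In mouse nuclei, the satellite repeats that flank the centromeres of different chromosomes cluster into chromocenters, compact bodies rich in repressive histone marks. Mouse autosomes are acrocentric, and the start of each assembled sequence lies next to the centromere. Sat4C uses the major satellite repeat as viewpoint and records the genomic fragments ligated to it after crosslinking. The mouse thymus is the organ in which T cells rearrange their receptor genes and are selected, whereas astrocytes are glial cells that take up transmitter and buffer ions around neurons. Expression was not measured, so the labels could not be checked against marker transcripts. Among T cell markers, *Cd3e*, *Cd4*, *Lck* and *Thy1* were non-PAD in both cell types, *Cd8a* was PAD in both and *Rag1* was PAD in the thymus. Among astrocyte markers, *Gfap*, *S100b*, *Aqp4*, *Slc1a2* and *Aldh1l1* were non-PAD in both and *Slc1a3* was PAD in both. The middle of *Aqp4* lay 0.324 kb from a class border, and its start was PAD in ACs only.

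A call is attached to a fragment end but was made from read counts along the chromosome, not from the bases of that end. Of the autosomal ends, 49.9% began with an MfeI site (CAATTG), 47.9% with an NlaIII site (CATG) and 2.21% with neither, with a median spacing of 2892 bp. The following pairs of ends are shown because the class changes between them, within a gene or next to a gene cluster described below. The authors state that variation between cells hampers an exact placing of PAD boundaries, so these borders are positions in the calls only. The first 60 bases of each end are given from NCBIM37, with an MfeI or NlaIII site at the start in capitals.
*Cd8b1*, last end of the AC PAD and thymus non-PAD class (chr6:71285102-71285161, plus strand): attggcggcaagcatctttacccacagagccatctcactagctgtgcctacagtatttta
*Cd8b1*, first end of the PAD in both class (chr6:71285173-71285232, plus strand): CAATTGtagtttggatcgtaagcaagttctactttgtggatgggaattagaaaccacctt
*Hoxd13*, last end of the PAD in both class (chr2:74502570-74502629, plus strand): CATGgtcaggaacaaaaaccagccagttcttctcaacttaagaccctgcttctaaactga
*Hoxd13*, first end of the AC PAD and thymus non-PAD class (chr2:74502780-74502839, plus strand): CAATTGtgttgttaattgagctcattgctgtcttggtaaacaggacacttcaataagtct
*Skint4*, last end of the non-PAD in both class (chr4:111790501-111790560, plus strand): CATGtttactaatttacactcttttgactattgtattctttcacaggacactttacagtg
*Skint4*, first end of the AC non-PAD and thymus PAD class (chr4:111790618-111790677, plus strand): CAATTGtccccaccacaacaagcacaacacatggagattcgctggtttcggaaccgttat
The left end at *Cd8b1* is among the ends that began with neither site.

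ACs and thymus shared the status of 76.0% of the autosomal sequence. Below, DNA is called PAD in ACs only, or PAD in the thymus only, with respect to this pair of cell types alone. PADs covered 50.1% of it in ACs and 48.1% in the thymus. DNA that was PAD in both made up 37.1% (894.6 Mb), and DNA that was non-PAD in both made up 38.9% (939.5 Mb). The other 24.0% (579.9 Mb) differed in status. It was split into 13.0% that was PAD in ACs only (314.4 Mb) and 10.996% that was PAD in the thymus only (265.4 Mb). Seen from each cell type, 74.0% of the AC PAD sequence was also thymus PAD, and 77.1% of the thymus PAD sequence was also AC PAD.

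The differing DNA was fragmented into many short regions. There were 939 regions of AC PAD and thymus non-PAD, with a median of 198 kb, and 729 regions of AC non-PAD and thymus PAD, with a median of 195 kb. Regions of shared status were fewer per Mb and longer, with medians of 507 kb for 869 shared PADs and 579 kb for 814 shared non-PADs. Regions over 1 Mb held 76.7% of the shared PAD sequence and 80.4% of the shared non-PAD sequence. The corresponding share was 30.3% for AC PAD and thymus non-PAD and 34.5% for AC non-PAD and thymus PAD.

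**Figure D1:**
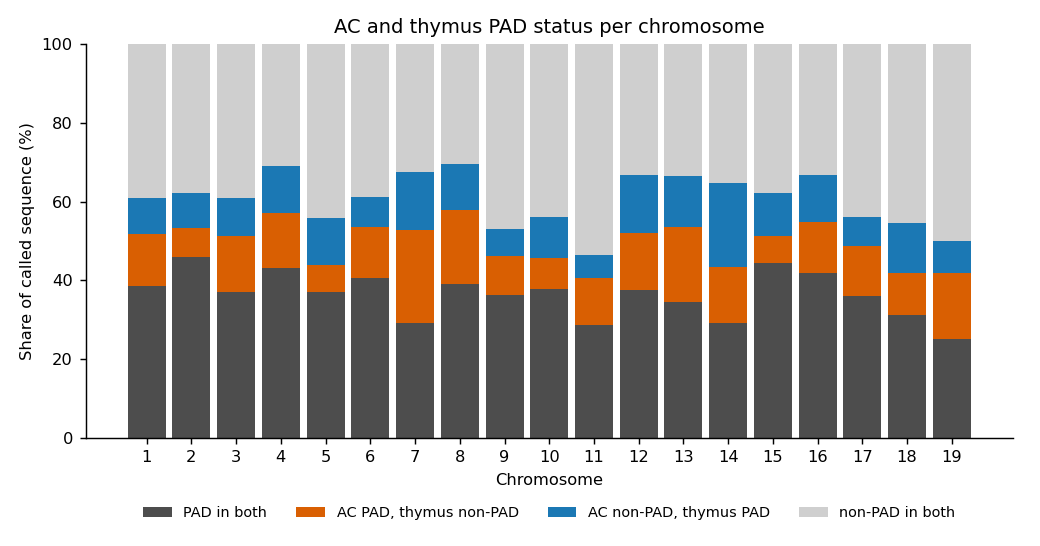
Share of the called sequence (%, vertical axis) in each of the 4 classes for each autosome (horizontal axis), as stacked bars that add to 100%. Chromosome 7 has the tallest section of AC PAD and thymus non-PAD, at 23.6%, and Chromosome 14 the tallest section of AC non-PAD and thymus PAD, at 21.5%.

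Chromosomes differed in how much of their DNA changed status and in which direction. The share of AC PAD and thymus non-PAD was 13.1% ± 4.39 (SD over 19 chromosomes), from 6.93% on Chromosome 5 to 23.6% on Chromosome 7. The share of AC non-PAD and thymus PAD was 11.01% ± 3.59, from 5.86% on Chromosome 11 to 21.5% on Chromosome 14. PAD coverage was higher in ACs on 12 of the 19 chromosomes, most on Chromosome 7 (52.9% in ACs and 44.0% in the thymus), and lower in ACs on Chromosome 14 by the widest margin (43.4% and 50.6%). The mean of AC minus thymus coverage was 2.07 percentage points with an SD of 4.68 points, so this mean was smaller than the spread between chromosomes. Chromosome 12 had nearly equal coverage (52.09% and 52.10%) with 14.6% of its DNA in each of the differing classes.

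The outlines of the PADs were seldom the same. ACs had 967 PADs with 1908 inner borders, and the thymus had 729 PADs with 1433. Only 7 borders fell at the same place and in the same direction in both. Within 50 kb of a border in the other cell type that ran in the same direction lay 8.18% of the AC borders and 11.03% of the thymus borders. Of the AC PADs, 323 (33.4%) did not overlap any thymus PAD and had a median of 232 kb, and 374 (38.7%) were covered to over 90%. Of the thymus PADs, 137 (18.8%) did not overlap any AC PAD, and 341 (46.8%) were covered to over 90%.

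The neighbors of a differing region show whether it lengthens a shared domain or stands alone. Of the 939 regions of AC PAD and thymus non-PAD, 387 (41.2%) lay between a shared PAD and a shared non-PAD. Another 320 (34.1%) stood as AC PADs inside shared non-PADs, and 225 (24.0%) were thymus non-PADs inside shared PADs. Of the 729 regions of AC non-PAD and thymus PAD, 312 (42.8%) lay between a shared PAD and a shared non-PAD, and only 134 (18.4%) stood as thymus PADs inside shared non-PADs. The larger group, 277 (38.0%), consisted of AC non-PADs inside shared PADs. Isolated PADs were thus more numerous in ACs than in the thymus, and interruptions of shared PADs were more numerous in ACs as well. The few regions left over lay at an end of the called sequence or next to a region that differed in the opposite way.

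**Figure D2:**
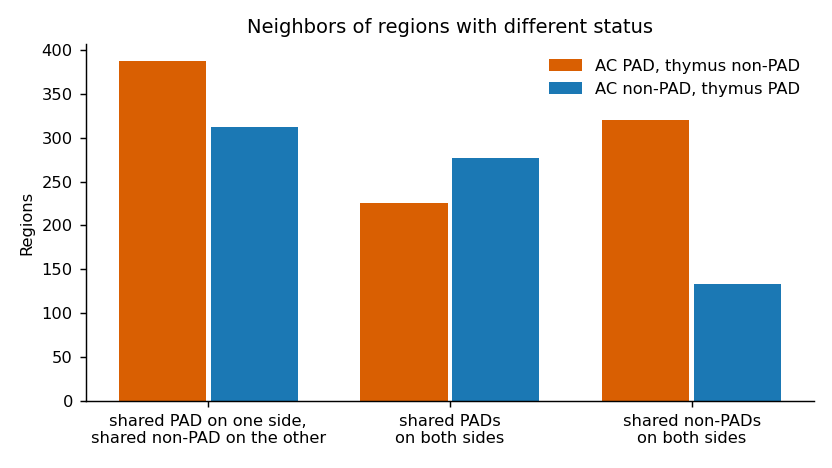
Number of regions (vertical axis) of the differing classes by the classes of their neighbors (horizontal axis), with AC PAD and thymus non-PAD in orange and AC non-PAD and thymus PAD in blue. The largest gap between the colors is inside shared non-PADs, with 320 against 134 regions.

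Genes were unevenly spread over the classes. Each autosomal protein-coding gene was given the class found at the middle of its longest transcript. Of the 21397 genes that could be placed, 58.6% (12538) were non-PAD in both and 19.2% (4115) were PAD in both. AC PAD and thymus non-PAD held 15.7% (3350 genes), and AC non-PAD and thymus PAD held 6.51% (1394 genes). Although the differing classes were of similar length, the DNA that was PAD in ACs only held 10.7 genes per Mb, and the DNA that was PAD in the thymus only held 5.25. The densities of the shared classes were 13.3 genes per Mb for non-PADs and 4.60 for PADs. Among chromosomes, the 2 differing classes had 10.3 ± 3.36 and 4.87 ± 2.04 genes per Mb (mean ± SD, 19 chromosomes). The first exceeded the second on 18 of 19, with Chromosome 5 as the exception, where the values were 6.57 and 8.14. Part of the DNA was thinly covered by fragment ends. Of the AC non-PAD and thymus PAD sequence, 6.73% lay in 6 regions of over 1 Mb with under 50 ends per Mb, which held 245 genes. Without such regions, the class had 4.64 genes per Mb and AC PAD and thymus non-PAD had 10.6.

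**Figure D3:**
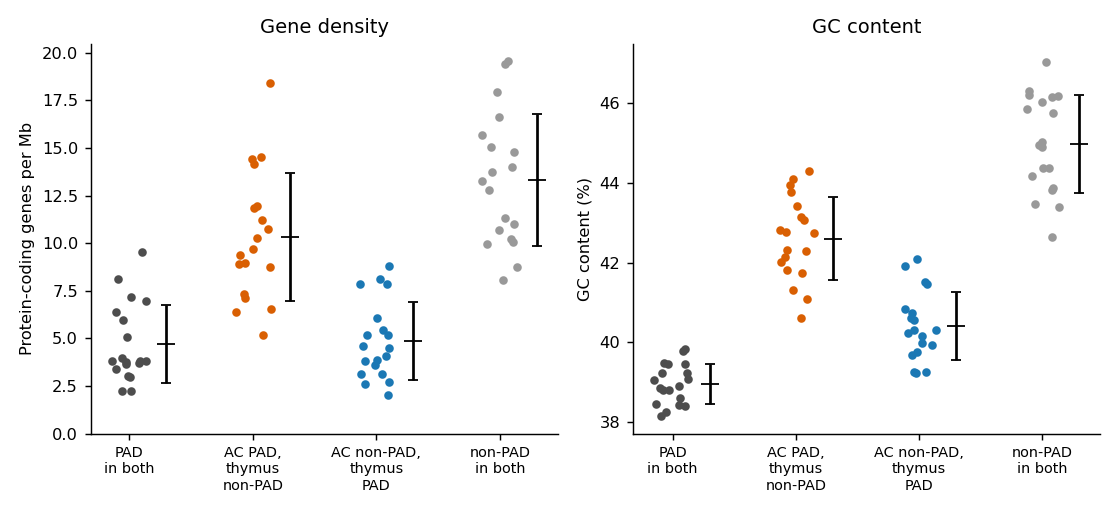
Protein-coding genes per Mb (left) and GC content in percent (right) of each class, with 1 point per autosome and black bars for mean ± SD over the 19 autosomes. DNA that is PAD in ACs only lies above DNA that is PAD in the thymus only in both panels, with means of 10.3 against 4.87 genes per Mb and 42.6% against 40.4% GC.

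The difference in density between AC non-PAD and thymus PAD and shared PADs was 0.158 ± 2.10 genes per Mb over chromosomes, above 0 on 11 of 19, so these classes had no settled order. GC content was 38.9% in shared PADs, 40.3% in AC non-PAD and thymus PAD, 42.7% in AC PAD and thymus non-PAD and 45.0% in shared non-PADs. The difference between the differing classes was 2.18 ± 1.16 percentage points over the chromosomes and lay above 0 on 19 of 19, from 0.0780 on Chromosome 2 to 4.53 on Chromosome 4. It also held among regions with the same kind of neighbors. Inside shared non-PADs, GC content was 43.6% for the AC PADs and 41.3% for the thymus PADs, and gene density was 11.9 and 5.001 per Mb. Inside shared PADs, GC content was 41.4% where ACs kept the PAD and 39.1% where the thymus kept it, and gene density was 8.36 and 4.15 per Mb. Restriction sites vary with base composition. ApoI, which cuts at AATT between a purine and a pyrimidine, had 2283 sites per Mb in shared PADs, 2048 in AC non-PAD and thymus PAD, 1681 in AC PAD and thymus non-PAD and 1379 in shared non-PADs. Fragment ends numbered 175, 158, 154 and 139 per Mb of known sequence in the same order. Their part in the calls was not tested.

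Windows upstream of genes followed the order of the classes in GC content. Among 21392 windows of the 250 bases upstream of a gene with a known sequence throughout, 7.36% held no CG dinucleotide and 49.1% held 10 or more. The mean number of CG per window was 13.6 in shared non-PADs, 11.7 in AC PAD and thymus non-PAD, 9.37 in AC non-PAD and thymus PAD and 7.37 in shared PADs, with SDs over genes between 9.55 and 10.7. As means over chromosomes, the differing classes had 11.6 ± 2.11 and 10.7 ± 2.73, which lay closer together than these SDs. Windows with 10 or more made up 48.5% in AC PAD and thymus non-PAD and 36.0% in AC non-PAD and thymus PAD. The windows of 4 genes described below are shown as examples of this spread within and between the differing classes, 5′ to 3′ on the strand of the gene from NCBIM37, with each CG in capitals.
*Polr2a*, AC PAD and thymus non-PAD (chr11:69572140-69572389, minus strand): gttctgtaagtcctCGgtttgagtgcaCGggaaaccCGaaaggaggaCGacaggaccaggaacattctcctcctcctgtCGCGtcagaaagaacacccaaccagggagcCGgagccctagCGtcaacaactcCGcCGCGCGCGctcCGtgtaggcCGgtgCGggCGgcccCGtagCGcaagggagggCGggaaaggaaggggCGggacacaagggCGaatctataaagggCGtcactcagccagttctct
*Gimap5*, AC PAD and thymus non-PAD (chr6:48695946-48696195, plus strand): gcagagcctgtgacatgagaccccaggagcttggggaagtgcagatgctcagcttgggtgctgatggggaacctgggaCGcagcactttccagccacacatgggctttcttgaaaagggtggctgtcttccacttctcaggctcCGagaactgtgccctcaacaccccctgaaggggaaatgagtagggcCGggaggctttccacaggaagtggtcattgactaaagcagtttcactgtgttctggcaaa
*S1pr1*, AC non-PAD and thymus PAD (chr3:115417974-115418223, minus strand): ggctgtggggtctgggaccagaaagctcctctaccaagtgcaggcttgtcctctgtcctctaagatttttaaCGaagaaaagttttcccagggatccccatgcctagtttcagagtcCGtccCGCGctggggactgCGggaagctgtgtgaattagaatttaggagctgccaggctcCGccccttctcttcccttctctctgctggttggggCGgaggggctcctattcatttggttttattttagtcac
*Rag1*, AC non-PAD and thymus PAD (chr2:101489659-101489908, minus strand): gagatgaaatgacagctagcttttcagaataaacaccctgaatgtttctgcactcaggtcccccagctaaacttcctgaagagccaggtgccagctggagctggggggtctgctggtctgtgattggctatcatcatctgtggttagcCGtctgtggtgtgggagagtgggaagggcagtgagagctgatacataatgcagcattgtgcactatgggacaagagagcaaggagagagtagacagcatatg
CG occurred 23 times in the window of *Polr2a*, 3 times in that of *Gimap5*, 7 times in that of *S1pr1* and once in that of *Rag1*. The GC content of the windows was 62.4%, 55.6%, 53.2% and 50.8%. *Polr2a* and *Gimap5* had the same pair of calls, with CG counts above and below the mean of their class.

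The longest stretch that was PAD in ACs and non-PAD in the thymus lay on Chromosome 4 (114143660 to 121094039), measured 6.95 Mb and held 900 fragment ends and 139 protein-coding genes. Its genes include *Tal1*, which encodes a transcription factor of blood progenitors, and a group of *Cyp4* genes for fatty acid hydroxylases, and its longest gene was *Hivep3*. The next in length were on Chromosome 8 (106017416 to 109565061, 97 genes, *Tmco7* the longest), Chromosome 12 (82276095 to 85738995, 38 genes, *Rgs6*), Chromosome 7 (126608866 to 129903071, 51 genes, *Prkcb*) and Chromosome 2 (174865524 to 178027455, 49 genes, *Phactr3*). The last of these rested on only 64 ends, whereas the others held between 421 and 900. The region on Chromosome 4 lay between a shared PAD and a shared non-PAD, and the others stood as AC PADs inside shared non-PADs.

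The longest stretches of the opposite kind were poorer in genes. The longest, at the centromeric start of Chromosome 14 (3291202 to 8542063, 5.25 Mb), is an exception with 111 genes, many of them under *Gm* symbols. It held only 47 fragment ends, so that its status rests on few measured positions. The second, on Chromosome 12 (21504501 to 25072632), held 59 ends and 6 genes, of which *9030624G23Rik* was the longest. More densely covered were Chromosome 12 from 66322964 to 69838123 (611 ends, 5 genes, among them the long adhesion gene *Mdga2*), Chromosome 7 from 57102470 to 60107366 (467 ends, 9 genes, *Nell1* the longest) and Chromosome 12 from 63203071 to 66075862 (494 ends, 4 genes, *Klhl28* the longest). The last of these and the region of *Mdga2* were separated by a shared non-PAD of 247 kb with 5 genes, among them *Fancm*, which acts in DNA repair, and *Prpf39*, a splicing factor. The gene-poor DNA on both sides of this short gene-containing stretch was thus PAD in the thymus and non-PAD in ACs.

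The longest shared PADs lay on Chromosome 4 (11596519 to 24480643, 12.9 Mb, 42 genes, *Nkain3* the longest), Chromosome 12 (41153745 to 51333446, 10.2 Mb, 12 genes, *Immp2l*) and Chromosome 1 (22124255 to 31083818, 8.96 Mb, 24 genes, *Bai3*). The longest shared non-PADs held many more genes, 351 in 20.6 Mb on Chromosome 4 (*Csmd2* the longest), 236 in 15.5 Mb on Chromosome 5 (*Ksr2*) and 248 in 11.4 Mb on Chromosome 2 (*Ralgps1*).

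Genes of T cells and thymus were found in each of the 4 classes. Of 78 entries of 6 lists of receptor, recombination, signaling, transcription factor, homing and epithelial genes, 53 (67.9%) were non-PAD in both, against 58.6% of all genes, and 13 (16.7%) were PAD in both, against 19.2%. In 6 entries (7.69%) the gene was PAD in ACs only, against 15.7% of all genes, and in 6 entries (7.69%) it was PAD in the thymus only, against 6.51%. By the start of the gene, *Themis* and *Itga4* were also PAD in ACs only and *Prss16* in the thymus only, whereas their midpoints were PAD in both. Differences in both directions were thus found among genes of these lists, and nothing particular to T cell or thymic genes is drawn from these counts.

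A short list of recombination genes held *Rag1*, *Rag2* and *Dntt*, the first 2 of which share a region. *Rag1* and *Rag2*, which encode the recombinase that cuts the segments, were PAD in the thymus and non-PAD in ACs. They lay in a region of 1218 kb on Chromosome 2 (101156230 to 102374273) with 180 ends and 9 genes, between shared non-PADs of 196 and 808 kb. *Rag1* itself holds no fragment end and *Rag2* holds 1, and 9 ends lay within 50 kb of the start of *Rag1*, so their status is that of the surrounding DNA. *Dntt*, which encodes the polymerase that adds bases at the joints, had the opposite status and was PAD in ACs only, in a region of 308 kb on Chromosome 19 (40842569 to 41150538) inside shared non-PADs. At the midpoints of *Rag1* and *Rag2*, ESCs were non-PAD and NPCs PAD, while at *Dntt* both were PAD.

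The coreceptor genes *Cd8a* and *Cd8b1*, whose products pair to recognize class I molecules, lay on either side of a class border. *Cd8b1* fell in a region of 1381 kb that was PAD in ACs only (Chromosome 6, 69903854 to 71285136), which ended inside the gene at the pair of ends shown above. *Cd8a* lay in the adjoining shared PAD of 78.7 kb with 11 ends. Beyond it followed a stretch of 22.1 kb with 2 ends that was again PAD in ACs only. The thymus call thus turned from non-PAD to PAD between the start sites of these neighboring genes, whereas ACs were PAD throughout. Since PAD boundaries are inexact and the shared PAD rests on 11 ends, no separation of these genes in the nucleus is drawn from this.

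Among signaling genes, *Prkcq* and *Txk*, for a protein kinase C of T cells and a TEC family kinase, were PAD in the thymus only. Of the 15 signaling genes, 10 (66.7%) were non-PAD in both, among them *Lck*, against 58.6% of all genes. Another 2 (13.3%, against 19.2%) were PAD in both, among them *Ptprc*, the gene of CD45.

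Among receptor genes for cytokines and homing, *Il2ra*, for the alpha chain of the interleukin 2 receptor, and *S1pr1*, whose product guides T cells out of the thymus, were PAD in the thymus only. The region of *S1pr1* measured 547 kb with 103 ends (Chromosome 3, 115094737 to 115641379) and lay between a shared PAD and a shared non-PAD. Of 24 entries of thymocyte transcription factors, 20 (83.3%) were non-PAD in both, against 58.6% of all genes. Only *Tcf12*, for an E protein, was PAD in ACs only (4.17%, against 15.7%), while *Gata3*, *Ikzf1* and *Tox* were PAD in both. Among 15 entries of thymic epithelium, *Krt14* was PAD in ACs only.

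Astrocyte genes were found in 3 of the 4 classes. Of 35 entries of astrocyte markers and transcription factors, 24 (68.6%) were non-PAD in both, 7 were PAD in both, 4 (11.4%) were PAD in ACs only and 0 were PAD in the thymus only. The shares of the last pair among all genes were 15.7% and 6.51%, so that with 35 entries nothing particular to astrocyte genes is drawn from them. The 4 entries are *Gja1*, which encodes the gap junction protein connexin 43, the transcription factor genes *Zeb1* and, with 2 entries, *Zbtb20*. *Gja1* lay in a region of 404 kb on Chromosome 10 (55817068 to 56220750) with 52 ends between shared PADs of 2.10 Mb and 974 kb, so that the thymus non-PAD was a gap in a PAD that ran through in ACs. Its nearest fragment end lay 8.11 kb from its start and none lay inside the gene. *Slc1a3*, for a glutamate transporter, and the transcription factor genes *Sox9*, *Pax6* and *Nfib* were PAD in both. *Zeb1* and the longer entry of *Zbtb20* crossed a class border, and the start of the latter was PAD in both.

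Other cell types were examined with lists of the same kind. Of 14 genes of B and myeloid cells, 4 were PAD in ACs only, namely *Cd68*, *Ms4a1*, *Itgam* and *Itgax*, and none was PAD in the thymus only. Of 26 neuronal genes, 0 were PAD in ACs only and 3 were PAD in the thymus only, *Gria2* for a glutamate receptor subunit, *Slc17a6* for a vesicular glutamate transporter and *Csmd1*. Of the 26, 12 crossed a class border, and by the start of the gene *Csmd1* was PAD in both, while *Mtap2* and *Dlg2* were PAD in the thymus only. Of 21 pluripotency genes, *Dppa2*, *Dppa3*, *Dppa4* and *Zfp42* were PAD in the thymus only and *Utf1* in ACs only, with *Dppa2* and *Dppa4* in the same region of 170 kb with 16 ends. Among 23 housekeeping genes, 20 (87.0%) were non-PAD in both, against 58.6% of all genes. The exceptions in the differing classes were *Polr2a*, for the largest subunit of RNA polymerase II, and *Tbp*, for the TATA box binding protein, both PAD in ACs only. The region of *Polr2a* measured 560 kb (Chromosome 11, 69144265 to 69704282), held 36 genes and 64 ends, and lay between shared non-PADs. With list sizes of 14 to 26 genes, shares of 15.7% and 6.51% correspond to few genes, and nothing particular to a list is drawn from these counts. Of the 224 entries in the 14 lists of single genes, 69 held no fragment end.

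**Figure D4:**
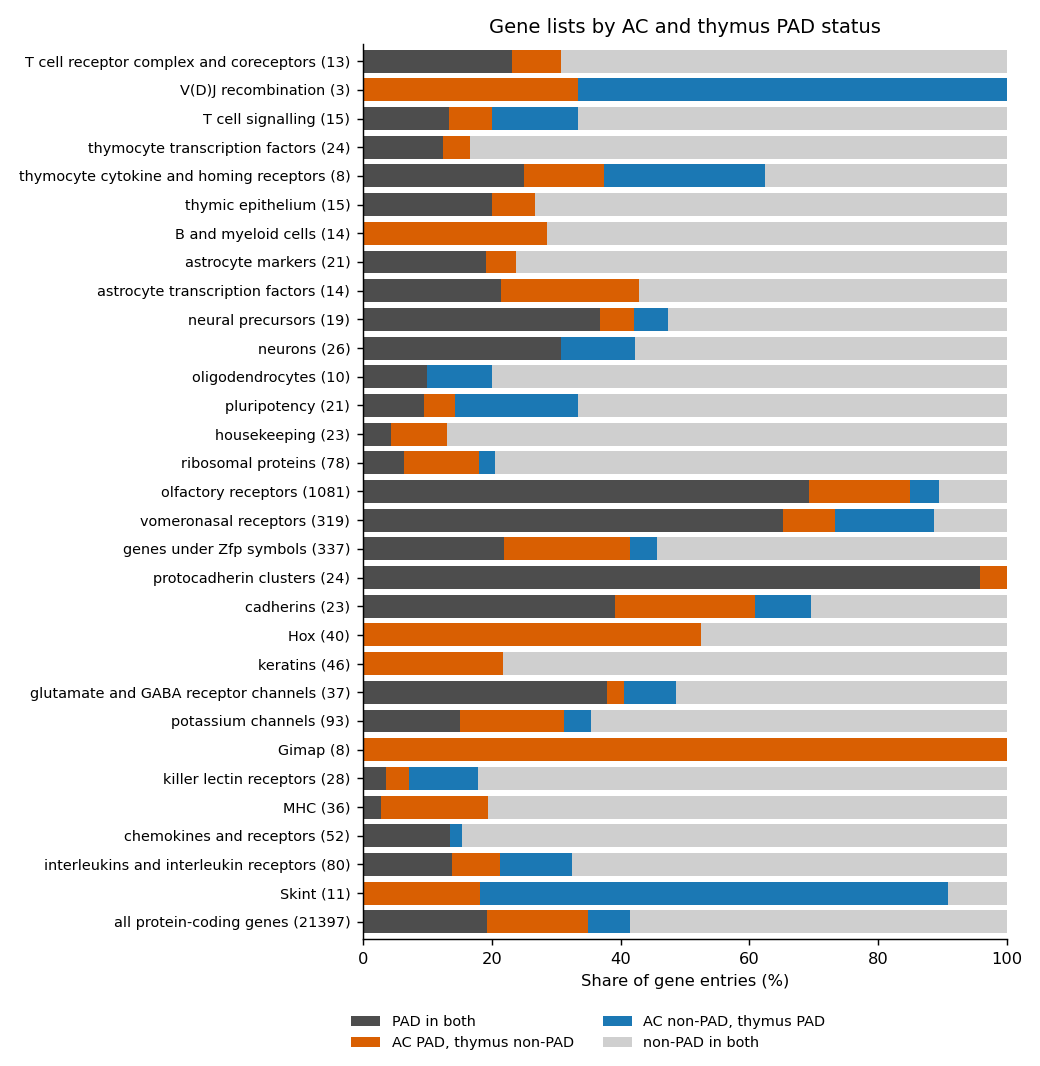
Share of gene entries (%, horizontal axis) in each class for 30 gene lists, with the number of entries in parentheses and all 21397 protein-coding genes at the bottom. The *Gimap* bar lies wholly in AC PAD and thymus non-PAD and most of the *Skint* bar in AC non-PAD and thymus PAD, whereas most T cell and astrocyte bars are dominated by non-PAD in both.

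Genes of a cluster share regions, so the entries of a family are not independent. All 8 *Gimap* genes, for GTPases of lymphocytes, lay in 1 region of 1.81 Mb on Chromosome 6 (47463759 to 49269370) that was PAD in ACs and non-PAD in the thymus. It held 216 ends and 38 genes, among them *Ezh2*, for a histone methyltransferase, and several *Zfp* genes, and it was flanked by shared PADs of 985 and 122 kb. Of 40 *Hox* entries, 21 (52.5%) were PAD in ACs only and 19 (47.5%) non-PAD in both, which followed the 4 clusters without exception. The shares of these classes among all genes were 15.7% and 58.6%. The 12 entries of *Hoxa* lay in a region of 1.14 Mb inside shared non-PADs, and the 9 genes of *Hoxd* lay in a region of 808 kb next to a shared PAD. The border of the latter, at the pair of ends shown above, lay 5.34 kb before the middle of *Hoxd13*, and the neighboring *Evx2* was PAD in both. *Hoxb* and *Hoxc* were non-PAD in both cell types.

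*Skint* genes, the family of *Skint1*, which takes part in the selection of epidermal T cells with gamma delta receptors, spanned several classes on Chromosome 4. *Skint7* and *Skint8* lay in a region of 793 kb that was PAD in ACs only, and *Skint1* lay in a shared non-PAD of 115 kb with 15 ends. The following 8 genes from *Skint4* to *Skint11* filled a region of 2.21 Mb with 276 ends (111790559 to 113997350) that was PAD in the thymus only and held no other protein-coding gene. After a shared PAD of 146 kb came the region of 6.95 Mb described above, with the opposite status. Along this stretch of Chromosome 4, ACs and thymus thus differed first in one direction, then in the other, and then in the first again.

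Receptor families of the olfactory system were for the most part PAD in both. Of 1081 olfactory receptor genes, 749 (69.3%) were PAD in both, 169 (15.6%) PAD in ACs only, 49 (4.53%) PAD in the thymus only and 114 (10.5%) non-PAD in both. The corresponding shares of all genes were 19.2%, 15.7%, 6.51% and 58.6%, so that the share PAD in ACs only was that of all genes. Of the 169, 61 lay on Chromosome 7, and the 27 on Chromosome 1 were non-PAD in both. Among 319 vomeronasal receptor entries, 26 (8.15%) were PAD in ACs only and 49 (15.4%) PAD in the thymus only, of which 39 were on Chromosome 7. Of these 49, 37 lay in regions of over 1 Mb with under 50 ends per Mb, and 12 remained without such regions, fewer than the 26. Of 46 keratin genes, 36 (78.3%) were non-PAD in both, against 58.6% of all genes, and 10 (21.7%) PAD in ACs only, against 15.7%. These 10 shared a region of 646 kb on Chromosome 11 (99456643 to 100102826) with 61 genes, among them *Krtap* genes for keratin-associated proteins of hair, between shared non-PADs of 3.82 and 4.59 Mb. Of 78 ribosomal protein genes, 62 (79.5%) were non-PAD in both, 9 (11.5%) PAD in ACs only and 2 (2.56%) PAD in the thymus only, against 58.6%, 15.7% and 6.51% of all genes. Of 52 chemokine and chemokine receptor genes, 44 (84.6%) were non-PAD in both, against 58.6% of all genes. Only 1 (1.92%), in a thinly covered region, was in a differing class.

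The classes were distributed differently along the chromosome arm. The called sequence of each chromosome was divided into 10 parts of equal length. In the part nearest the centromere, 6.91% ± 5.28 (mean ± SD, 19 chromosomes) was PAD in ACs only and 16.7% ± 18.9 was PAD in the thymus only. Pooled over chromosomes, the share PAD in the thymus only was 16.9% in this part, and 13.3% without Chromosome 14. In the part nearest the telomere, the order was reversed, with 15.6% ± 12.6 and 4.46% ± 5.39. Shared PADs had their largest share next to the centromere, and shared non-PADs next to the telomere. In the centromeric 5 parts and the telomeric 5 parts, the share that was PAD in ACs only was 10.7% ± 4.90 and 15.5% ± 8.07, and it was higher on the telomeric side on 13 of 19 chromosomes. The share that was PAD in the thymus only was 13.5% ± 6.396 and 8.52% ± 3.72, and it was higher on the telomeric side on 6 of 19. The mean differences, 4.81 ± 10.1 and -4.99 ± 7.61 percentage points, were smaller than their SDs over chromosomes.

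**Figure D5:**
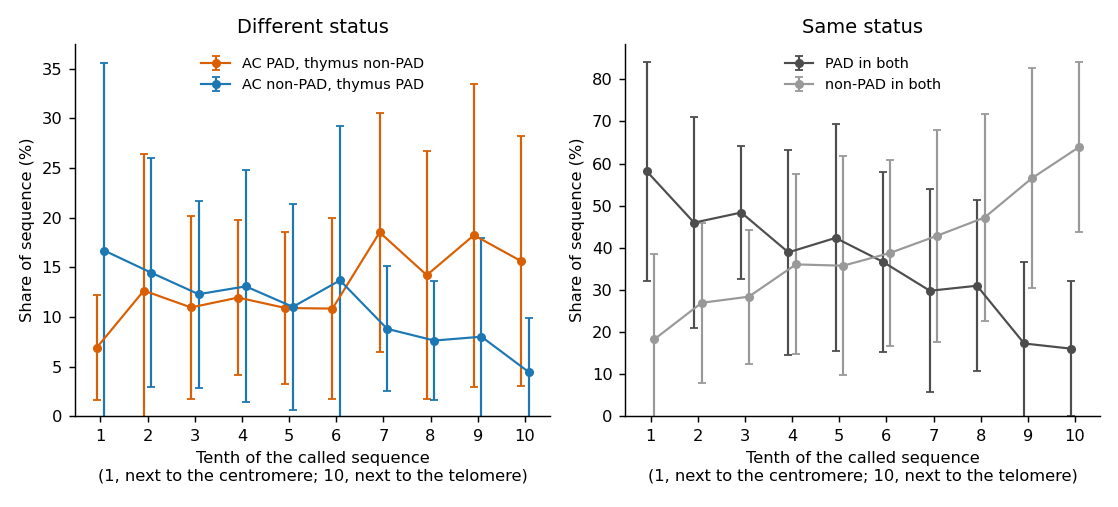
Share of sequence (%, vertical axes) in each of 10 equal parts of the called sequence from centromere to telomere (horizontal axes), as mean over the 19 autosomes with SD as error bars, cut at 0. The orange points (PAD in ACs only) start at 6.91% and end at 15.6%, the blue points (PAD in the thymus only) start at 16.7% and end at 4.46%, and the SDs overlap in each of the 10 parts.

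Next to the centromeres, the excess of DNA that was PAD in the thymus only depended to a large part on a single chromosome. Over the first 10 Mb of the called sequence, 17.7% was PAD in the thymus only, against 10.4% of the remainder, a difference of 7.27 points. Chromosome 14, where 87.0% of the first 10 Mb was of this class and fragment ends were few, decided the size of this difference, which was 3.69 points without it. The difference was above 0 on 11 of 19 chromosomes. For AC PAD and thymus non-PAD the first 10 Mb held 7.49% and the remainder 13.5%, a difference of -6.01 points, above 0 on 5 of 19 chromosomes. Chromosomes 1, 2, 5, 9 and 14 had none of this class in their first 10 Mb, and Chromosome 19 had the most, 34.1%. Over the last 10 Mb the shares were 15.6% for AC PAD and thymus non-PAD and 4.50% for AC non-PAD and thymus PAD.

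The calls of ESCs and NPCs, which were not used to form the classes, were read at the same fragment ends. Of the DNA that was PAD in ACs only, 71.7% was PAD in ESCs and 90.1% in NPCs. Of the DNA that was PAD in the thymus only, 28.7% was PAD in ESCs and 33.8% in NPCs. Over all autosomal sequence, PADs covered 52.8% in ESCs and 69.3% in NPCs. For comparison, shared PADs were PAD over 84.5% of their length in ESCs and 81.8% in NPCs, and shared non-PADs over 23.1% and 60.5%. In NPCs, DNA that was PAD in ACs only thus lay above shared PADs, and DNA that was PAD in the thymus only lay below shared non-PADs. The SDs over chromosomes for the differing classes were 9.33 and 9.81 percentage points in ESCs and 7.92 and 16.3 points in NPCs, where the second ranged from 1.53% to 67.1%. ACs, NPCs and ESCs come from the same cultured lineage and strain, from which the thymus differs. The longest regions varied in this respect. Of the ends in the region of 6.95 Mb on Chromosome 4, 53.4% were PAD in ESCs and 100% in NPCs, whereas of the ends in the thymus PAD around *Mdga2* on Chromosome 12, 100% were PAD in ESCs and 0% in NPCs.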

How the data were processed

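Sat4C reads from 2 AC replicates and 3 thymus replicates (6 sets of reads) were used by the authors to make the deposited table. They mapped reads to fragment ends of mm9 (aligner not given in the sources used here) and binned them in read classes. Each replicate was segmented with a hidden semi-Markov model, and a majority vote gave 1 word per cell type. Ties were settled by a virtual replicate made of the pooled reads. With 2 AC replicates any disagreement was a tie, whereas 3 thymus replicates have a majority. The part of this difference in the numbers of PADs was not tested. The deposited values are words (PAD or non-PAD) and not numbers, without counts, depth or error.

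From these, classes, regions, borders and shares were computed with Python 3.11.15, numpy 2.4.6 and pandas 2.3.3. Sequence was read from NCBIM37 with pysam 0.24.0, and genes came from GENCODE M1. The scripts were tested on simulated data. Chromosome X was left out of the main values. Named were the 5 largest regions of each differing class, the 3 largest of each shared class with their longest genes, members of T cell, thymic and astrocyte lists in differing classes and up to 6 of each other list, and extreme chromosomes. Other named genes were chosen after their values were seen. Classes and gene lists were chosen with earlier results of these data known. Results for some genes of the lists are not reported here.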

Additional observations from a re-analysis of the deposited data

How the results depend on the processing

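Shares, counts and densities cannot be negative, so only the differences between the first 10 Mb and the remainder could change sign, and none did. Under the alternatives, 13 of 42 planned values and 3 of 28 values chosen after seeing the data moved. A share or such a difference moved when it left a 95% interval computed as if fragment ends were independent. They are not, so the interval is no measure of error. A count moved when it changed by a factor of over 1.5, and a gene density when it changed by over its SD over chromosomes. The tallies mix these rules. With fragment ends counted, the shares were 11.1% for AC non-PAD and thymus PAD, 41.2% for PAD in both and 34.7% for non-PAD in both, which turned the order of the shared classes (37.1% and 38.9% of sequence), and the excess of AC non-PAD and thymus PAD in the first 10 Mb was 5.78 points. With Chromosome X, AC PAD and thymus non-PAD was 13.2%, PAD in both 37.3% and non-PAD in both 38.4%. Without gaps over 100 kb, AC non-PAD and thymus PAD was 10.6% and non-PAD in both 39.3%. With borders at the outer ends, AC PAD and thymus non-PAD was 12.88%. With all gene types, the differing classes held 5383 and 2509 genes. Over the first 5 Mb, AC PAD and thymus non-PAD differed from the remainder by -6.42 points. Chosen after seeing the data, leaving out Chromosome 14 gave -5.48 points for AC PAD and thymus non-PAD and 3.69 points for AC non-PAD and thymus PAD, and leaving out regions over 1 Mb with under 50 ends per Mb gave a share of 10.4% for the latter. Apart from what an alternative leaves out by its construction, the cause was not tested.

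No paired analysis was possible because the deposited calls hold 1 consensus per cell type. No replicate was left out for the same reason, and the depth behind the calls is unknown.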
